A study of Mus musculus with 3 samples.

Results

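The cells described here were endothelial cells of the mouse ascending aorta in which genes of lipid-handling capillaries outweighed those of the aortic lumen and of lymphatic vessels. They numbered 65 of 26158 cells that passed the filter, which came from 33178 barcodes, and 16 were in the WT library, 29 in mgR and 20 in mgR-LOS. Cells with 600 to 5000 detected genes and at most 10% mitochondrial unique molecular identifiers (UMIs, tags that mark single RNA molecules) were kept. Per 10000 UMIs of the cell, Pecam1 and Cdh5, which encode endothelial junction proteins, had to sum to at least 4, Ptprc of leukocytes had to be 0, Dcn of fibroblasts to be under 30, and 6 contractile genes of smooth muscle (Acta2, Myh11, Tagln, Cnn1, Myl9 and Tpm2) to sum to under 100. This gate held 413 endothelial cells. A cell was called capillary-type when the sum of Gpihbp1, Rgcc, Cd36 and C1qtnf9 exceeded both the luminal sum (Vwf, Heg1, Bmp4 and Edn1) and the lymphatic sum (Mmrn1, Flt4, Prox1 and Reln). The members were thus chosen by measured values of these 22 genes, which are used as support for nothing below. The other gated cells were 194 luminal, 145 lymphatic and 9 with tied sums.

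The libraries came from 45-day-old male C57BL/6J mice: wild-type animals (WT), mice homozygous for Fbn1 mgR (mgR), a hypomorphic allele of the fibrillin-1 gene that makes this strain a model of Marfan syndrome, and Fbn1 mgR/mgR mice given losartan, a blocker of the angiotensin II type 1 receptor, at 0.6 g/L in the drinking water from day 16 (mgR-LOS). The labels do not say whether the mgR mice drank vehicle. Tissue between the aortic root and the brachiocephalic artery was pooled over mice, so that each group was 1 library with no replicate. Allele and drug were not limited to endothelium, and the spread between mice was not measured. Values between libraries therefore carry intervals for counting error only and no test, and the comparisons share libraries with each other. Over all passed cells Fbn1, the gene the allele affects, stood at 361 CPM in the WT library, 150.1 in mgR and 117 in mgR-LOS, higher in WT than in either library labelled mgR. These values were not adjusted for the mix of cell types, which differed. Smooth muscle cells numbered 2939 of 5361 passed cells in WT, 3128 of 8076 in mgR and 7406 of 12721 in mgR-LOS.

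Capillary endothelial cells of heart, muscle and fat take up fatty acids from the blood. GPIHBP1, a protein anchored in their membrane, carries lipoprotein lipase to the vessel lumen, where the lipase splits triglycerides of passing lipoproteins, and CD36 and fatty acid binding proteins then pass the released fatty acids into and through the cell. The luminal endothelium of a large artery is known instead for genes of shear responses, coagulation and elastic matrix, and the outer wall of the aorta is itself fed by small vessels, the vasa vasorum.

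The depth of the 65 cells ran from 1093 to 20423 UMIs per cell. The median was 5843.5 UMIs in WT, 6154 in mgR and 7460.5 in mgR-LOS, and the summed depth was 114996, 228271 and 139818 UMIs. The deepest single cell held 15.8% of the WT sum, 8.95% of the mgR sum and 11.8% of the mgR-LOS sum. Levels below are counts per 1000000 (CPM) of these summed UMIs, and a count of 3 UMIs corresponded to 26.1 CPM in WT, 13.1 in mgR and 21.5 in mgR-LOS. Barcodes shared between libraries numbered 22 for WT and mgR, 29 for WT and mgR-LOS and 46 for mgR and mgR-LOS, and none of these belonged to a capillary-type cell. No capillary-type, luminal or lymphatic cell was called a doublet.

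The libraries stood apart from each other in 2 measures that touch these cells. Among barcodes with 600 to 5000 genes that met the capillary rule, 24 of 40 in WT (60%, 95% Clopper-Pearson interval 43.3 to 75.1) exceeded 10% mitochondrial UMIs and were therefore left out, against 9 of 38 in mgR (23.7%, 11.4 to 40.2) and 6 of 26 in mgR-LOS (23.1%, 8.97 to 43.6). For the luminal rule the shares were 17.0% of 53 barcodes in WT, 7.37% of 95 in mgR and 3.13% of 64 in mgR-LOS, and for the lymphatic rule 3.70% of 27, 1.32% of 76 and 8.33% of 48. The median mitochondrial share of barcodes that met the capillary rule was 12.7% in WT, 3.71% in mgR and 4.65% in mgR-LOS, so that most WT barcodes of this class lay above the limit. The other measure was pericyte RNA. Pericytes are the mural cells that wrap capillaries, and 16 of the 65 cells held at least 10 UMIs of 7 pericyte marker genes (Rgs5, Kcnj8, Abcc9, Cspg4, Pdgfrb, Notch3 and Higd1b): 0 of 16 in WT, 8 of 29 in mgR and 8 of 20 in mgR-LOS. The counts of called genes over all genes are given with and without them.

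**Figure D1:**
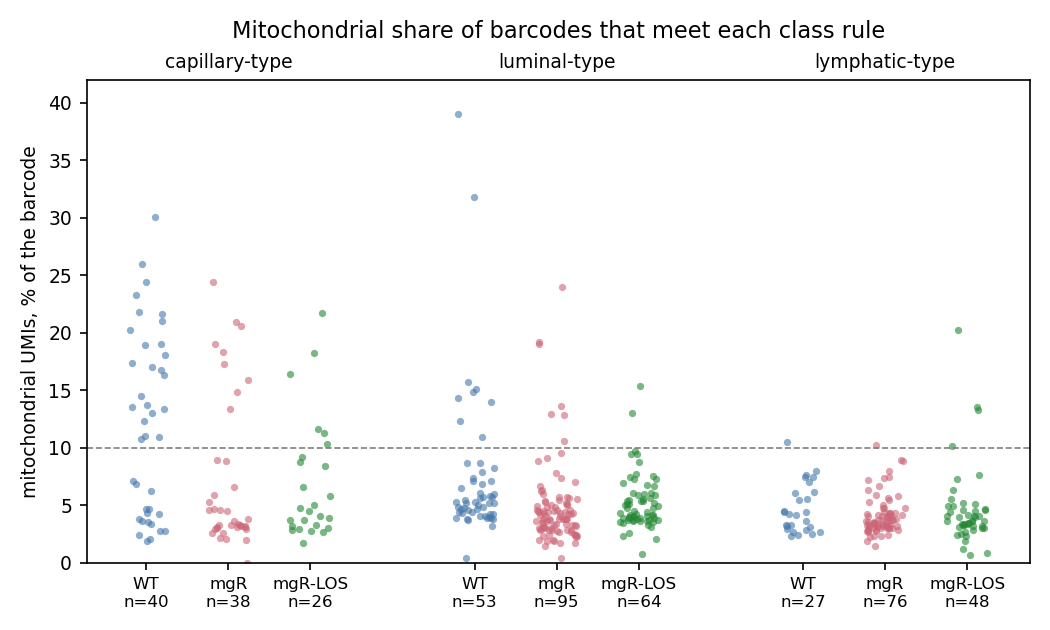
Mitochondrial UMIs as a percentage of each barcode's UMIs, for barcodes with 600 to 5000 genes that met the capillary, luminal or lymphatic rule; each point is 1 barcode, n is their number and the dashed line marks the 10% limit. In the WT library 24 of 40 capillary-rule barcodes lie above the line, against 9 of 53 luminal ones.

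The genes of the rule set the class and are given as a description. Gpihbp1 (ENSMUSG00000022579, chr15:75596628-75599481, plus strand) stood at 1278 CPM in the WT library, 1503 in mgR and 1788 in mgR-LOS. Cd36, a fatty acid transporter and scavenger receptor, stood at 2548 CPM in the WT library, 2458 in mgR and 2746 in mgR-LOS. Rgcc, a regulator of the cell cycle, stood at 539 CPM in the WT library, 837 in mgR and 1295 in mgR-LOS. C1qtnf9, a secreted protein of the C1q and TNF-related family, stood at 461 CPM in the WT library, 368 in mgR and 358 in mgR-LOS. All 4 were present in every library, and Cd36 was the steadiest of them. The capillary sum per cell ran from 5.49 to 131 per 10000 UMIs with a median of 63.1, while the luminal sum had a median of 2.19 and the lymphatic sum was 0 in 52 of 65 cells. The smallest lead of the capillary sum over the next sum was 5.65 per 10000 in WT, 3.12 in mgR and 8.97 in mgR-LOS. Just outside, a gated cell missed the class by 4.18 per 10000 in WT, 1.72 in mgR and 0.867 in mgR-LOS. The lowest sum of Pecam1 and Cdh5 inside was 16.2, 4.98 and 9.15 in the 3 libraries, and the highest among cells that failed on this sum alone was 1.01, 2.73 and 3.49.

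Fabp4, the adipocyte and endothelial fatty acid binding protein that ferries fatty acids in the cytoplasm, was named as a marker of these cells but was not part of the rule. Fabp4 (ENSMUSG00000062515, chr3:10204088-10208576, minus strand) held more UMIs than any other gene outside the mitochondrial and ribosomal protein genes, 1.93% of all UMIs of the 65 cells. Its level was 19009 CPM in the WT library, 18951 in mgR and 20105 in mgR-LOS. In luminal cells it was 620.2 CPM in the WT library, 591 in mgR and 606 in mgR-LOS, and in lymphatic cells 1197 CPM in the WT library, 619 in mgR and 784 in mgR-LOS. The 3 capillary values did not overlap with, and lay far above, every value of the other classes. The log2 fold change was 5.04 ± 0.23 (SE, n = 3 libraries, adjusted p = 1.1e-10) against luminal and 4.68 (SE 0.23, adjusted p = 2.9e-10) against lymphatic cells by edgeR's quasi-likelihood test on sums per class and library.

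By cell, Fabp4 ranged from 0 to 409 per 10000 UMIs in WT with a median of 214. In mgR the range was 22.3 to 496 with a median of 213, and in mgR-LOS 0 to 591 with a median of 174. Only 1 WT cell and 1 mgR-LOS cell had no Fabp4 UMI. After each cell was thinned to 1000 UMIs, 63 of 65 capillary-type cells had a Fabp4 UMI (96.9%, 89.3 to 99.6), as before thinning. Thinned shares were 23.4% of 192 luminal cells (39.7% unthinned), 32.4% of 145 lymphatic cells (51.7% unthinned) and 9.95% of 13459 smooth muscle cells (47.6% unthinned), a cell type that should lack the gene. The smooth muscle cells were deeper, with medians of 14266, 15039 and 8454.5 UMIs in WT, mgR and mgR-LOS.

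**Figure D2:**
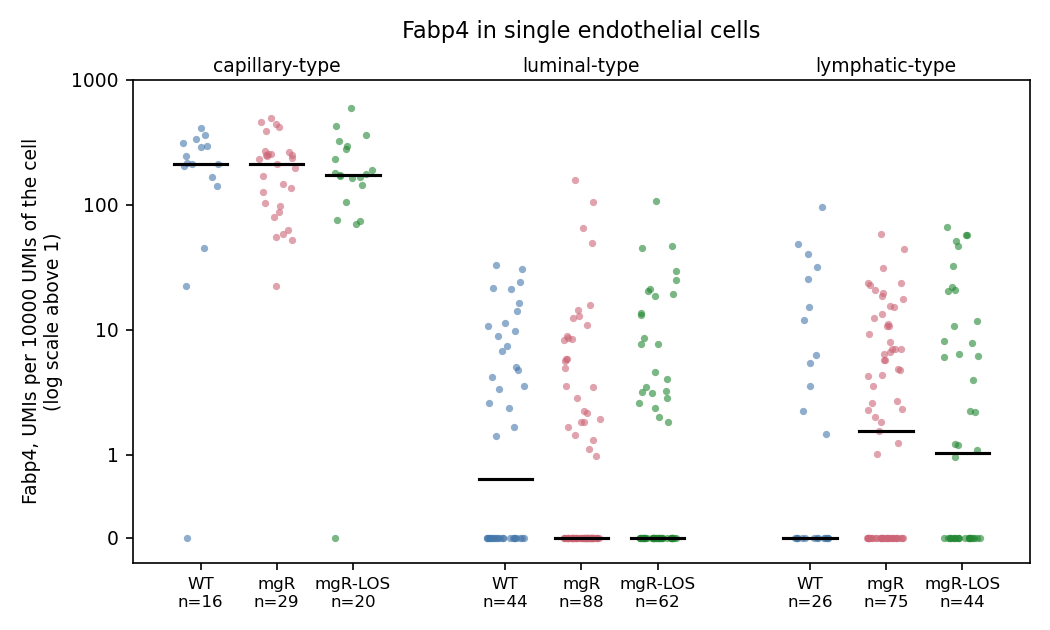
Fabp4 UMIs per 10000 UMIs of each endothelial cell (log scale above 1) by class and library; each point is 1 cell, the black bar is the median and n the number of cells. Medians of capillary-type cells are 214, 213 and 174 in WT, mgR and mgR-LOS, while every luminal and lymphatic median is under 2.

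Capillary-type cells were then compared with luminal and lymphatic cells, each summed per library, over 5783 genes that passed the filter on low counts. Against luminal cells 567 genes were higher (9.8%) and 574 lower (9.93%) at an adjusted p under 0.05, and against lymphatic cells 590 were higher (10.2%) and 527 lower (9.11%). The 3 libraries served as replicates although they differ in genotype and drug, so the test asked for differences between classes common to them. The median log2 fold change over all genes was -0.03 and -0.01. The 22 genes of the rule were left out of every count. Without the 16 pericyte-rich cells the counts were 468 higher and 527 lower against luminal and 441 higher and 458 lower against lymphatic cells. The count is sensitive to the mgR library, since without it 354 and 372 genes were called against luminal cells and 329 and 293 against lymphatic cells.

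Of the genes that capture lipid at the cell surface, 4 of the 7 listed passed the filter, and Lpl and Scarb1 were higher and Apoe lower than in luminal cells. Lpl, which encodes lipoprotein lipase itself, stood at 496 CPM in the WT library, 784 in mgR and 829.6 in mgR-LOS in capillary-type cells. Luminal cells had 10.9, 5.99 and 18.0 CPM and lymphatic cells 150.3, 73.8 and 80.4 CPM in the same order of libraries. The groups did not overlap, with log2 fold changes of 6.05 (SE 0.37, adjusted p = 5.4e-09) and 3.06 (SE 0.29, adjusted p = 6.1e-07). Scarb1, the receptor through which cells take cholesterol esters from high-density lipoprotein, stood at 235 CPM in the WT library, 389.9 in mgR and 207 in mgR-LOS, against at most 22.5 CPM in luminal and 8.62 CPM in lymphatic cells. Its log2 fold change was 4.18 (SE 0.32, adjusted p = 5.5e-08) and 5.98 (SE 0.40, adjusted p = 9.1e-09). Apoe, the ligand by which lipoprotein remnants are cleared, stood at 878 CPM in the WT library, 705 in mgR and 708 in mgR-LOS and was lower than in luminal cells (log2 fold change -2.58, SE 0.36, adjusted p = 4.5e-05) but higher than in lymphatic cells (1.23, SE 0.38, adjusted p = 0.028), where the call was lost without mgR (adjusted p = 0.35) and without mgR-LOS (adjusted p = 0.1). The endothelial lipase Lipg was nearly unseen, at 0, 4.38 and 0 CPM. The median of the 4 tested genes was 1.15 against luminal and 2.15 against lymphatic cells.

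Among fatty acid binding, transport and activating proteins, Fabp4 and Fabp5 were the only 2 of 4 tested genes that changed, out of 11 listed, and both were higher in both contrasts. Fabp5, a second binding protein of endothelium and skin, stood at 939 CPM in the WT library, 1047 in mgR and 1029.9 in mgR-LOS. Luminal cells had 501, 181 and 541 CPM and lymphatic cells 125, 48.2 and 40.2 CPM, all below every capillary value. The log2 fold change was 1.5 (SE 0.30, adjusted p = 0.0015), lost without the mgR library (adjusted p = 0.052), and 4.16 (SE 0.36, adjusted p = 2.2e-07). Dbi, the acyl-CoA binding protein, was at 235 CPM in the WT library, 258 in mgR and 286 in mgR-LOS, and did not pass in either contrast (log2 fold change 0.15, SE 0.21, and 0.16, SE 0.21). The acyl-CoA synthetase Acsl5 did not pass either (-0.29, SE 0.37, and -0.53, SE 0.37). The fatty acid transport proteins Slc27a1, Slc27a3 and Slc27a4, the heart-type binding protein Fabp3 and the synthetases Acsl1, Acsl3 and Acsl4 had at most 35.8 CPM in any library and were too low to test.

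Of 11 genes of lipid storage and release, 8 were tested and 5 were higher than in luminal cells (Plin2, Lipe, Mgll, Aqp7 and Abca1), and none was lower. Against lymphatic cells Plin2, Pnpla2, Lipe, Mgll and Aqp7 were higher and again none was lower. The list's median was 1.93 and 1.20, the same with Aqp7 at its bound. Aqp7, a channel for glycerol and water, stood at 104 CPM in the WT library, 87.6 in mgR and 114 in mgR-LOS and had no UMI in any of 194 luminal or 145 lymphatic cells. With 3 UMIs over the pooled class as the floor, it was at least 47.1-fold higher than in luminal and at least 40.1-fold higher than in lymphatic cells. Mgll, the lipase that splits monoglycerides, stood at 704 CPM in the WT library, 679 in mgR and 1116 in mgR-LOS, against 125, 67.4 and 139 CPM in luminal cells, with a log2 fold change of 2.99 (SE 0.23, adjusted p = 5.7e-08) and 1.04 (SE 0.21, adjusted p = 0.0013). Lipe, hormone-sensitive lipase, stood at 60.9 CPM in the WT library, 61.3 in mgR and 122 in mgR-LOS and rose by 3.61 (SE 0.53, adjusted p = 6.9e-05) and 4.56 (SE 0.61, adjusted p = 2.8e-05) on the log2 scale. Plin2, which coats lipid droplets, stood at 148 CPM in the WT library, 83.2 in mgR and 107 in mgR-LOS and rose by 2.27 (SE 0.34, adjusted p = 9.3e-05) and 2.62 (SE 0.37, adjusted p = 4.4e-05). Abca1, a cholesterol exporter, was lost against luminal cells without the mgR library (adjusted p = 0.024 with it, 0.44 without). Pnpla2, the first lipase of triglyceride stores, passed against lymphatic cells (adjusted p = 0.005), though not without mgR (adjusted p = 0.23). With the pericyte-rich cells left out, 7 of the 8 tested storage genes were higher than in luminal and 5 higher than in lymphatic cells. Adipoq and Plin1, which define fat cells, had no UMI in any capillary-type cell.

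**Figure D3:**
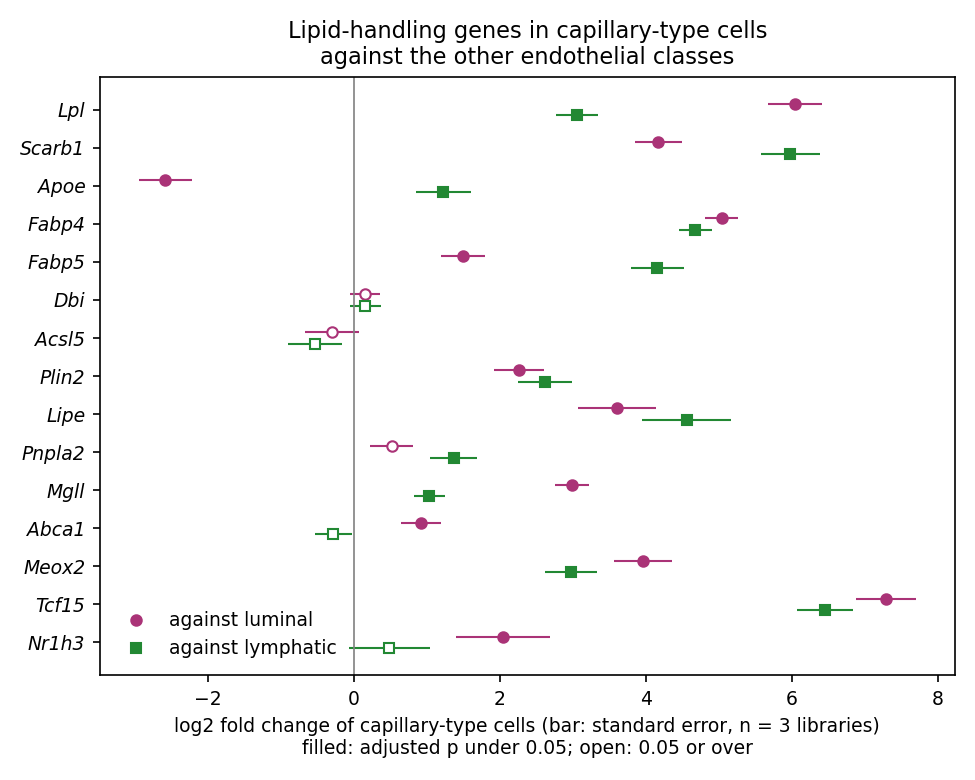
Log2 fold change of capillary-type cells against luminal (circles) and lymphatic (squares) endothelial cells for tested genes of lipid handling. Bars are standard errors derived from the edgeR test on 3 libraries, and filled symbols have an adjusted p under 0.05. Fabp4, Lpl, Scarb1 and Tcf15 lie above 3 in both contrasts, while Apoe falls on opposite sides of 0.

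Of 10 regulators 5 were tested, and 3 were higher than in luminal and 2 higher than in lymphatic cells. The median log2 fold change of the tested regulators was 2.05 against luminal and 0.49 against lymphatic cells. Meox2 and Tcf15 encode transcription factors known to act together on fatty acid uptake in heart endothelium. Tcf15 (ENSMUSG00000068079, chr2:152143561-152149097, plus strand) stood at 469.6 CPM in the WT library, 223 in mgR and 551 in mgR-LOS, and luminal cells had 3 UMIs in all. The ratio of pooled CPM was 179-fold (95% counting interval 60.2 to 875) and the log2 fold change against lymphatic cells 6.45 (SE 0.39, adjusted p = 2.7e-09). Meox2 stood at 139 CPM in the WT library, 210.3 in mgR and 114 in mgR-LOS, against at most 15.5 CPM in luminal and 35.1 CPM in lymphatic cells, with log2 fold changes of 3.97 (SE 0.40, adjusted p = 9.8e-07) and 2.98 (SE 0.36, adjusted p = 8.6e-06). Nr1h3, the liver X receptor alpha, was called higher than in luminal cells (adjusted p = 0.032), though neither without WT (adjusted p = 0.053) nor without mgR (adjusted p = 0.086), and it did not pass the filter without mgR-LOS. Pparg, the nuclear receptor that drives fat cell genes, was below the filter at 17.4 CPM in the WT library, 17.5 in mgR and 129 in mgR-LOS. Angptl4, an inhibitor of lipoprotein lipase, was below it too, at 69.6 CPM in the WT library, 56.9 in mgR and 21.5 in mgR-LOS. Without the pericyte-rich cells Angptl4 passed the filter and was higher than in luminal (adjusted p = 5.7e-04) and lymphatic cells (adjusted p = 0.01), Nr1h3 did not pass it, and 3 of 5 tested regulators were higher in each contrast. Pparg passed the filter without WT and was then called higher than in luminal cells (adjusted p = 6.2e-04), but not than in lymphatic cells (0.15). Angptl4 passed the filter without mgR-LOS, with an adjusted p of 0.022 against luminal and 0.07 against lymphatic cells. Ppara had no UMI in any class.

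The promoters of 2 of these genes are shown because they are called higher in both contrasts and hold a half-site AGGTCA, the letters that nuclear receptors of the PPAR and liver X families recognise in pairs. Each line is the 250 bases before the RefSeq start on GRCm38.p6, 5′ to 3′ on the gene's strand, with AGGTCA or its reverse complement TGACCT in capitals. The Aqp7 window lies at chr4:41047963-41048212, minus strand, and the Plin2 window at chr4:86670060-86670309, minus strand. Aqp7 has 2 starts in the table, and the window with more half-sites is printed. The other, at chr4:41048137-41048386, overlaps it and holds 1.
Aqp7: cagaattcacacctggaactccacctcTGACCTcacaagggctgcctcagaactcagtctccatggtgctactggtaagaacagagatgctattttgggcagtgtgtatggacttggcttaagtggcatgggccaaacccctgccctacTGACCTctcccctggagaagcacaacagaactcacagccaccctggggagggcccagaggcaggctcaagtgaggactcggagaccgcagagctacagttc
Plin2: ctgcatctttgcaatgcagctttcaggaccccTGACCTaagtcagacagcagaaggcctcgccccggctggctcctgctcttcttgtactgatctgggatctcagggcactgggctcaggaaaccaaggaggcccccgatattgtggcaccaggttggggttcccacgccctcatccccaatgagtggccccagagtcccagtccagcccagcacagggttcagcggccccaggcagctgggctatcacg
Of 39 genes on the 4 lipid lists 28 had a start in the RefSeq table, with 45 windows, some of which overlap. Fabp4, Fabp5, Lpl, Scarb1 and Tcf15 had no start there, so the search did not cover them. The half-site was in 7 of the 45 windows (15.6%) and in 14.0% of all 32851 windows of this length, so the share among lipid genes was close to that among all promoters. Of the 7 genes called higher than in luminal cells that had a window, Aqp7 and Plin2 held it, and Abca1, Lipe, Meox2, Mgll and Nr1h3 did not. A match is only a run of letters, and no match says nothing of the receptor.

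Genes known from microvascular endothelium rose almost as a group. Against luminal cells 14 of 16 were higher and none lower (median log2 fold change 3.91), and against lymphatic cells 12 were higher and none lower (2.60). Both medians are the same with genes at 0 in the other class set at their bound. Car4, a carbonic anhydrase on the capillary surface, stood at 183 CPM in the WT library, 215 in mgR and 200.3 in mgR-LOS and had no UMI in luminal or lymphatic cells, which made it at least 96.2-fold and 81.9-fold higher. Kdr, the main receptor for VEGF, stood at 609 CPM in the WT library, 657 in mgR and 565 in mgR-LOS, against 16.3, 29.9 and 61.9 CPM in luminal cells (log2 fold change 4.17, SE 0.30, adjusted p = 2.5e-08), and did not pass against lymphatic cells (adjusted p = 0.23). Sparcl1, a matrix protein, stood at 1217 CPM in the WT library, 1595 in mgR and 1974 in mgR-LOS, with log2 fold changes of 4.59 (SE 0.38, adjusted p = 1.3e-07) and 7.84 (SE 0.52, adjusted p = 8.8e-09). Cxcl12, a chemokine that guides leukocytes and vessels, stood at 1069.6 CPM in the WT library, 1349 in mgR and 2167 in mgR-LOS (log2 fold change 3.66, SE 0.43, adjusted p = 6.9e-06 and 5.32, SE 0.50, adjusted p = 6.1e-07). Cd300lg, a receptor of capillary endothelium, and Timp4, an inhibitor of metalloproteinases, were higher in both contrasts as well. Btnl9 had no UMI in luminal cells and was at least 98.2-fold higher there, but it overlapped the lymphatic values, and its call against them was lost without mgR-LOS (adjusted p = 0.0029 with it, 0.12 without). Plvap, which forms the diaphragms of fenestrated capillaries, and Tspan12 passed in neither contrast. Plvap was called higher in both when mgR-LOS was left out (adjusted p = 0.0041 against luminal and 0.044 against lymphatic cells). Tspan12 was called higher than in luminal cells when WT was left out (adjusted p = 0.0018). Aplnr, the apelin receptor, was called in both, but without the mgR library or without the pericyte-rich cells it was too low to test. Lpar6 (adjusted p = 0.11) and Cyp4b1 (adjusted p = 0.11) lost the luminal call without mgR-LOS.

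Caveolae, the membrane pits through which endothelium moves cargo, are formed by caveolins and cavins. Of 6 genes 5 were higher than in luminal cells (Cav1, Cav2, Cavin1, Cavin2 and Cavin3) and 2 higher than in lymphatic cells (Cav1 and Cavin1), with none lower. The list's median log2 fold change was 0.69 against luminal and 0.49 against lymphatic cells. Cav1 stood at 1496 CPM in the WT library, 1608 in mgR and 1459 in mgR-LOS, against 813, 936 and 794 CPM in luminal cells (log2 fold change 0.89, SE 0.18, adjusted p = 0.0019) and 1082, 812 and 951 CPM in lymphatic cells (0.84, SE 0.19, adjusted p = 0.003, adjusted p = 0.084 without mgR). Cavin1 too lost its lymphatic call without mgR (adjusted p = 0.058). Cav2 and Cavin3 lost the luminal call when any 1 library was left out, and Cavin2 when mgR-LOS was left out.

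Of 16 angiogenesis genes 12 were tested and 7 were higher than in luminal cells, none lower. Against lymphatic cells 5 were higher and 1 lower. When the pericyte-rich cells were left out 11 were tested, of which 6 were higher than in luminal cells and 4 higher and none lower than in lymphatic cells. Medians on the log2 scale were 1.48 against luminal and -0.22 against lymphatic cells. Flt1, the decoy receptor for VEGF, stood at 1287 CPM in the WT library, 767 in mgR and 1266 in mgR-LOS, with log2 fold changes of 1.80 (SE 0.20, adjusted p = 4.3e-06) and 3.72 (SE 0.23, adjusted p = 4.3e-09). Nrp2, a co-receptor for VEGF-C and semaphorins, was called higher than in luminal cells (log2 fold change 4.66, SE 0.29, adjusted p = 6.0e-09), and Nrp1 higher than in lymphatic cells (7.80, SE 0.45, adjusted p = 1.8e-09). Nrp1 was called higher than in luminal cells as well when the pericyte-rich cells (adjusted p = 0.032) or the mgR-LOS library (adjusted p = 0.013) were left out. Dll4, a Notch ligand of tip cells and arterioles, stood at 104 CPM in the WT library, 153 in mgR and 164 in mgR-LOS and rose in both (3.07, SE 0.35, adjusted p = 5.0e-06 and 2.69, SE 0.34, adjusted p = 1.6e-05). Esm1, a proteoglycan of tip cells, had no UMI in the other classes and was at least 40.3-fold higher than in luminal cells, at 87.0 CPM in the WT library, 105 in mgR and 50.1 in mgR-LOS, but it was too low to test without the pericyte-rich cells. Apln, the ligand of Aplnr, was called in both contrasts, but 29 UMIs of the WT library came from 2 cells. Adm and Unc5b were called against luminal cells, Adm not without mgR (adjusted p = 0.31) and Unc5b not when any 1 library was left out. Vegfb was lower than in lymphatic cells (adjusted p = 0.023), with too few UMIs to test once mgR or mgR-LOS was left out and an adjusted p of 0.14 without the pericyte-rich cells.

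Genes of the large artery moved the other way. Of 14 tested genes 12 were lower than in luminal cells and Sox17 was higher (median log2 fold change -2.85), while against lymphatic cells 3 were higher (Sox17, Cytl1 and Thbs1) and 4 lower (Bmx, Eln, Fbln5 and Ptn), with a median of -0.13. Of these 7 calls those of Sox17 and Ptn were kept whichever library was left out. Thbs1 was lost without mgR (adjusted p = 0.34) and without mgR-LOS (0.096), Fbln5 without WT and without mgR, and Bmx and Eln without mgR-LOS and without the pericyte-rich cells. Eln, which encodes elastin, stood at 409 CPM in the WT library, 241 in mgR and 150.2 in mgR-LOS, against 1896, 3941 and 2488 CPM in luminal cells (log2 fold change -3.40, SE 0.32, adjusted p = 5.2e-07). Bmx, a kinase of arterial endothelium, had 3 UMIs in mgR and none in WT or mgR-LOS, against 209, 289 and 467 CPM (-5.57, SE 0.50, adjusted p = 2.9e-07). Mgp, an inhibitor of calcification, stood at 383 CPM in the WT library, 1971 in mgR and 1817 in mgR-LOS, against 9785, 10097 and 4925 CPM in luminal cells (-2.70, SE 0.40, adjusted p = 7.6e-05). Sox17, an arterial transcription factor, stood at 209 CPM in the WT library, 272 in mgR and 336 in mgR-LOS and had no UMI in lymphatic cells. Its log2 fold change was 1.56 (SE 0.34, adjusted p = 0.0036) against luminal cells, and it was at least 111-fold higher than in lymphatic cells. Efnb2 lost its lower call against luminal cells without WT (adjusted p = 0.17) and without mgR (adjusted p = 0.4), and Gja4 without mgR (adjusted p = 0.065). Cytl1 was called higher than in lymphatic cells from 65 UMIs of a single mgR cell, and the sign turned when mgR was left out (log2 fold change -4.00).

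Of 10 tested vasoactive and coagulation genes 7 were lower than in luminal cells (Nos3, Ece1, Ptgis, Ptgs1, Ace, Procr and Plat) and Ednrb was higher, with a median of -1.65. Against lymphatic cells Ace was higher and 4 were lower (Ece1, Thbd, Tfpi and Plat), with a median of -0.82. Ace lost that call without mgR (adjusted p = 0.74), without mgR-LOS (0.11) and without the pericyte-rich cells (0.082), Plat without mgR (0.21) and Tfpi whichever library was left out. Ptgis, prostacyclin synthase, stood at 43.5 CPM in the WT library, 35 in mgR and 0 in mgR-LOS, against 547, 410.2 and 369 CPM in luminal cells (log2 fold change -3.95, SE 0.37, adjusted p = 6.0e-07). Procr, the endothelial protein C receptor, fell by 3.1 (SE 0.38, adjusted p = 8.9e-06) on the log2 scale. Ednrb, the endothelin B receptor, stood at 148 CPM in the WT library, 202 in mgR and 329 in mgR-LOS, against at most 20.6 CPM in luminal cells (4.74, SE 0.52, adjusted p = 3.3e-06). Nos3, endothelial nitric oxide synthase, stood at 122 CPM in the WT library, 21.9 in mgR and 85.8 in mgR-LOS and lost its lower call without mgR (adjusted p = 0.078) and without mgR-LOS (adjusted p = 0.071). Agtr1a, the receptor that losartan blocks, had 0, 8.76 and 35.8 CPM in WT, mgR and mgR-LOS and was too low to test. Agtr2 had no UMI. Of the TGF-beta and BMP list 4 of 13 genes were lower than in luminal cells, among them Tgfb2, Bmpr2 and Smad6, and none higher (median -0.39), Smad6 not without mgR (adjusted p = 0.14). With the pericyte-rich cells left out 6 were lower, Smad7 and Id3 among them. Fbn1 itself stood at 43.5 CPM in the WT library, 13.1 in mgR and 35.8 in mgR-LOS, from 5, 3 and 5 UMIs, and did not pass against luminal cells (adjusted p = 0.63). It was called lower than in lymphatic cells (log2 fold change -1.55, SE 0.41, adjusted p = 0.01), but not without WT (adjusted p = 0.096) or without mgR (adjusted p = 0.13).

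Class II antigen presentation genes Cd74, H2-Aa and H2-Eb1 were lower than in luminal cells, 3 of 8 tested genes of their list, and H2-Eb1 was too low to test without mgR. Against lymphatic cells the class I genes H2-D1, H2-K1 and B2m were higher, with Icam1 and Cd200. The medians of that list were -0.51 and 1.04. B2m stood at 3018 CPM in the WT library, 3194 in mgR and 1616 in mgR-LOS, with a log2 fold change of 1.60 (SE 0.20, adjusted p = 1.6e-05) against lymphatic cells. H2-D1 and Icam1 lost that call without WT (adjusted p = 0.13 and 0.17) or without mgR (adjusted p = 0.26 and 0.095), and Cd200 without WT (adjusted p = 0.072). Of 10 interferon-stimulated genes 4 were higher than in luminal cells, among them Irf7, Bst2 and Ly6e, and 3 higher than in lymphatic cells (medians 0.85 and 0.60), and only Bst2 kept its luminal call whichever library was left out. Of the 3 lymphatic calls, Bst2 (adjusted p = 0.12) and Irf7 (0.71) were lost without mgR, Irf7 also without WT (0.066) and without the pericyte-rich cells (0.086), and Iigp1 was kept. Bst2 stood at 713 CPM in the WT library, 907 in mgR and 601 in mgR-LOS (log2 fold change 0.90, SE 0.21, adjusted p = 0.0048).

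Immediate early and stress genes were higher in 13 of 15 cases in both contrasts, the other 2 being Klf2 and Klf4. The median log2 fold change was 2.47 against luminal and 1.42 against lymphatic cells. Fos stood at 2765 CPM in the WT library, 2204 in mgR and 3483 in mgR-LOS, against 269, 785 and 327 CPM in luminal and 506, 2007 and 1534 CPM in lymphatic cells. Its log2 fold change was 2.82 (SE 0.34, adjusted p = 8.1e-06) and 1.41 (SE 0.32, adjusted p = 0.0041), and the lymphatic call was lost without WT (adjusted p = 0.075). The lymphatic calls of Atf3 (adjusted p = 0.064), Dnajb1 (0.1) and Klf6 (0.06) were lost without mgR. Those of Fosb (0.059) and Klf6 (0.26) were lost without mgR-LOS. Hspa1b, an inducible heat shock protein, stood at 1713 CPM in the WT library, 1169.7 in mgR and 1116 in mgR-LOS (3.20, SE 0.25, adjusted p = 7.8e-08 and 1.55, SE 0.24, adjusted p = 1.1e-04). When the pericyte-rich cells were left out, 12 of 15 genes were still higher and Klf2 was lower (adjusted p = 0.049) than in luminal cells, but only 4 of 15 were higher than in lymphatic cells (Ier2, Zfp36, Hspa1a and Hspa1b). Fos was then at 2765, 1377 and 840.3 CPM, with an adjusted p of 0.0018 and 0.5.

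By size of change, the genes furthest above luminal cells beside those named were Ablim3, an actin-binding protein, and Thrsp, a regulator of lipogenesis. Ablim3 had 92 UMIs and Thrsp 76 in capillary-type cells and none in luminal cells, so that they were at least 90.4-fold and 74.6-fold higher. Thrsp stood at 130.4 CPM in the WT library, 210.3 in mgR and 93.0 in mgR-LOS. Gm12002 and the nucleoside transporter Slc28a2 completed the 10 highest, at least 33.4-fold and 24.6-fold higher, and Slc28a2 was too low to test without the pericyte-rich cells. Rgs5, a pericyte marker, was among them too and is described with the pericyte genes. At the low end Efna5, Pthlh, Hapln1, Cyp1b1, Gcnt1, Ahnak2, Krt80, Kcnn4 and Nrg1 had no UMI in capillary-type cells. Efna5, an ephrin, was at least 30.9-fold lower and Pthlh, the parathyroid hormone-like hormone, at least 27.7-fold lower than in luminal cells. Sfrp1, a secreted Wnt antagonist, had 1 UMI in capillary-type against 1539 in luminal cells.

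Against lymphatic cells, the junction protein Jam2 (160 UMIs against 0) was at least 134-fold higher, the transcription factor Mecom at least 59.4-fold, the sialyltransferase St8sia4 at least 57.7-fold and the drug efflux pump Abcb1a at least 45.1-fold. Jam2 stood at 374 CPM in the WT library, 319.8 in mgR and 315 in mgR-LOS. AW112010 had 265 UMIs against 2. All 8 lymphatic genes that were tested were lower. Ccl21a, the lymphatic chemokine for dendritic cells, and Lyve1, a hyaluronan receptor, had no UMI in the 65 cells and were at least 1264-fold and 297-fold lower. The guidance cues Sema3d and Sema3a, Dtx1, Gpm6a, Adamtsl1, Pdpn and Serpina3n were also without a UMI, and Nts had 1. Among 14 pan-endothelial genes most did not separate the classes: 2 were higher and 3 lower than in luminal cells, and 2 higher and 1 lower than in lymphatic cells. Without mgR-LOS 1 of the 2 higher genes kept its call in each contrast, and without mgR the lower call against lymphatic cells was lost. Of the 3 genes lower than in luminal cells Mmrn2 lost its call without WT (adjusted p = 0.11), without mgR (0.24) and without the pericyte-rich cells (0.088), and Ramp2 without mgR-LOS (0.11). Robo4, which steadies vessel walls, was higher than in luminal cells, at 200 CPM in the WT library, 136 in mgR and 164 in mgR-LOS against 5.44, 28.4 and 10.3 CPM (log2 fold change 3.34, SE 0.39, adjusted p = 6.6e-06). Of 6 tested venous genes Nr2f2 was higher than in luminal cells (adjusted p = 4.7e-04), though not without the pericyte-rich cells (adjusted p = 0.26), and Vcam1 lower. Against lymphatic cells Ackr1 and Selp were higher and Nr2f2, Ephb4 and Lrg1 lower. The lower call of Nr2f2 (log2 fold change -2.21, SE 0.34, adjusted p = 1.3e-04) was kept whichever library was left out and without the pericyte-rich cells, Ephb4 lost its call without mgR, Lrg1 without mgR, without mgR-LOS and without the pericyte-rich cells, and Ackr1 was too low to test without mgR. Leaving out the pericyte-rich cells added Lrg1 (luminal contrast) and Vcam1 (lymphatic contrast) to the higher genes.

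The share of capillary-type cells among gated endothelial cells was 16 of 91 in WT (17.6%, 95% Clopper-Pearson interval 10.4 to 27.0), 29 of 195 in mgR (14.9%, 10.2 to 20.7) and 20 of 127 in mgR-LOS (15.7%, 9.89 to 23.3). The 3 intervals overlapped, and a difference was not detectable at these numbers of cells. Of all passed cells the class made up 0.298%, 0.359% and 0.157%. The WT share depended on the mitochondrial limit. With the limit at 20%, chosen after the data were seen, it was 32 of 116 (27.6%) in WT, 35 of 208 (16.8%) in mgR and 25 of 138 (18.1%) in mgR-LOS. Without the pericyte-rich cells it was 17.6%, 11.2% and 10.1%. Intervals and floors cover counting error only.

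Pericyte markers in capillary-type cells summed to 157 CPM in the WT library, 1726 in mgR and 2732 in mgR-LOS, against 29.9, 55.4 and 82.5 CPM in luminal cells. Rgs5, a regulator of G-protein signalling and the most abundant of the 7, stood at 122 CPM in the WT library, 1297 in mgR and 1838 in mgR-LOS, and Kcnj8, Cspg4 and Notch3 were at 0 in WT. The UMIs sat in few cells: the 8 pericyte-rich mgR cells held 98.7% and the 8 mgR-LOS cells 99.5% of their library's list UMIs, and 4 of the former and 7 of the latter had UMIs of 4 or more of the genes. No cell lay between 3 and 9 such UMIs in mgR or mgR-LOS, while the highest WT cell had 7. Pericyte-rich cells were deeper, with a median of 9968.5 UMIs in mgR and 11160 in mgR-LOS against 3940 and 3303 for the others. Their Fabp4 medians were 141 and 168 per 10000 UMIs against 246 and 177. No luminal or lymphatic cell reached 10 pericyte UMIs. The doublet caller marked none of the 16, but it simulated pairs drawn at random from all passed cells. Pairs that include so rare a class are seldom drawn, so the absence of calls says little about these cells. Whether they are doublets was not tested. Against luminal cells Rgs5 differed by a pooled ratio of 418 from 567 against 4 UMIs, and without the 16 cells it was too low to test.

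**Figure D4:**
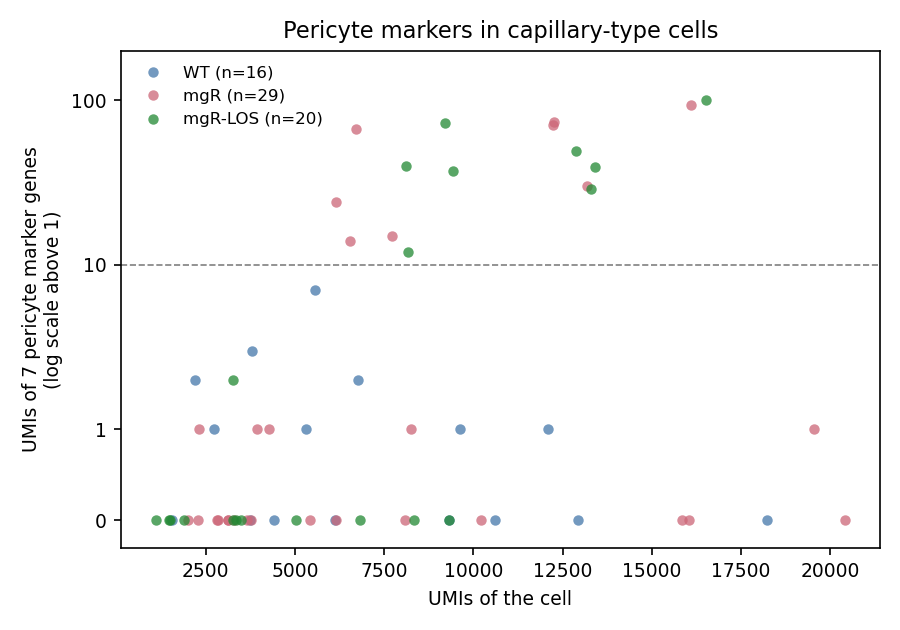
UMIs of 7 pericyte marker genes (log scale above 1) against all UMIs of each of the 65 capillary-type cells; each point is 1 cell, coloured by library, and the dashed line marks 10 UMIs. The 16 cells above the line are 8 mgR and 8 mgR-LOS cells, and the highest WT cell has 7.

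Most lipid genes with at least 30 UMIs over both libraries lay within 2-fold of each other in the 3 comparisons, which have no test. The background is the share of genes with at least 30 UMIs over both libraries that differed at least 2-fold: of 1763 genes 4.82% were higher and 2.33% lower in mgR than in WT, of 1965 genes 4.48% were higher and 4.17% lower in mgR-LOS than in mgR, and of 1349 genes 7.26% were higher and 4.15% lower in mgR-LOS than in WT. Fabp4 in mgR was 0.997-fold (95% interval 0.947 to 1.05) of WT, and in mgR-LOS 1.06-fold (95% interval 1.01 to 1.11) of mgR. Fabp5, Apoe, Plin2, Aqp7 and Lipe had intervals that included 1 in all 3 comparisons. Lpl was 1.58-fold (95% interval 1.17 to 2.17) of WT in mgR and 1.06-fold (95% interval 0.830 to 1.34) of mgR in mgR-LOS, so that WT was the lowest library. Scarb1 was highest in mgR, at 1.66-fold (95% interval 1.07 to 2.66) of WT, with mgR-LOS at 0.532-fold (95% interval 0.337 to 0.817) of mgR. Mgll was highest in mgR-LOS, at 1.64-fold (95% interval 1.31 to 2.07) of mgR. Meox2 in mgR-LOS was 0.544-fold (95% interval 0.288 to 0.975) of mgR.

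Past 2-fold among the lipid genes with at least 30 UMIs were Tcf15 in mgR against WT, and Tcf15 and Abca1 in mgR-LOS against mgR. Tcf15 was lowest in mgR, at 0.476-fold (95% interval 0.318 to 0.711) of WT, and mgR-LOS was at 2.46-fold (95% interval 1.71 to 3.58) of mgR. WT and mgR-LOS were near each other for Tcf15, with a ratio of 1.17-fold (95% interval 0.818 to 1.69). Tcf15 with those cells of pericyte RNA left out was at 469.6, 217 and 717 CPM, in the same order. Abca1 in mgR-LOS was 0.466-fold (95% interval 0.206 to 0.963) of mgR. Pparg, below 30 UMIs in each comparison, had 2, 4 and 18 UMIs in WT, mgR and mgR-LOS, and 12 of 20 mgR-LOS cells had at least 1 against 2 of 16 and 3 of 29. Each of these rests on 1 library per group, and the spread between mice was not measured.

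**Figure D5:**
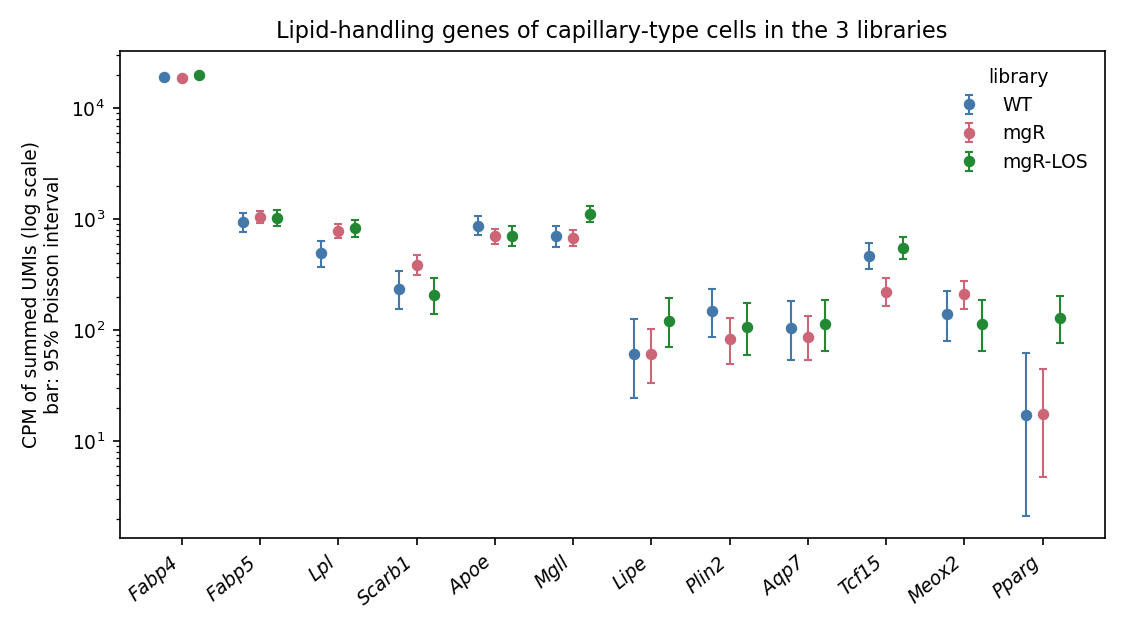
CPM (log scale) of 12 lipid-handling genes in the summed capillary-type cells of each library; points are the libraries and bars 95% Poisson intervals, which cover counting error only. Fabp4 is at 19009, 18951 and 20105 CPM in all 3 libraries, and Tcf15 is lowest in mgR.

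Over all genes, 85 were at least 2-fold higher and 41 at least 2-fold lower in mgR than in WT, 88 and 82 in mgR-LOS against mgR, and 98 and 56 in mgR-LOS against WT, with no test. Many rested on few cells. With the richest cell of each gene set aside, the counts were 42 and 9, 34 and 38, and 49 and 18. Without the pericyte-rich cells they were 48 and 51, 56 and 102, and 37 and 78. Of the largest differences in mgR against WT, Cytl1 (285 CPM against 0) came from 1 cell, Prnd (8.76 against 348 CPM) had 95% of its WT UMIs in 1 cell, and C430049B03Rik and Hbegf had 92.9% and 91.4% in 1 WT cell. Abcc9 and Rgs5 were pericyte genes, and Nr2f2, a venous factor at 17.4 CPM in the WT library, 158 in mgR and 122 in mgR-LOS, was at 17.4, 47.5 and 41.0 CPM without the pericyte-rich cells. More widely shared over cells were Ifi27l2a, an interferon-induced gene (175 CPM in 10 of 29 mgR cells, 0 in WT), Dbp, a clock output factor (15.6-fold, 95% interval 2.60 to 636, in 12 cells), and Dhrs3, a retinal reductase, lower in mgR (0.183-fold, 95% interval 0.0705 to 0.427, in 10 of 16 WT cells). Mgp, on the large artery list, was at 383 CPM in the WT library, 1971 in mgR and 1817 in mgR-LOS, 5.15-fold (95% interval 3.78 to 7.19) of WT in mgR, and at 383, 1180.5 and 553 CPM without the pericyte-rich cells.

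In mgR-LOS against mgR the highest genes were spread over more cells. Zbtb16, a transcription factor, was at 17.4, 13.1 and 229 CPM in WT, mgR and mgR-LOS, from 32 UMIs in 13 of 20 mgR-LOS cells against 3 in mgR (17.4-fold, 95% interval 5.45 to 88.9). In luminal cells it was at 5.44, 4.49 and 51.6 CPM, also highest in mgR-LOS. Rbp7, a retinol binding protein of capillaries, was at 365 CPM in the WT library, 202 in mgR and 1044 in mgR-LOS, 5.18-fold (95% interval 3.70 to 7.38) of mgR, in 13 cells. Rbp7 with the pericyte-rich cells left out was at 365, 176 and 1701 CPM, and luminal cells had at most 28.4 CPM. Hes1, a Notch target, was at 235 CPM in the WT library, 131 in mgR and 458 in mgR-LOS (3.48-fold, 95% interval 2.22 to 5.57). Hes1 in luminal cells was at 88.3 CPM in mgR and 206 in mgR-LOS, and over all passed cells at 159 and 307 CPM. Isg15, an interferon-stimulated gene, was at 8.70 CPM in the WT library, 43.8 in mgR and 257 in mgR-LOS (5.88-fold, 95% interval 2.86 to 13.3), and luminal cells had 24.5, 38.9 and 77.4 CPM in the same order. Auts2, Plekho1, Aldh2, Tns2, Clip1 and Cdc42bpa were between 3.27-fold and 3.99-fold of mgR, each in 11 to 14 cells.

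Lowest in mgR-LOS against mgR, beside Cytl1, were the chemokine Cxcl9, the secreted glycoprotein Lrg1, Plvap, Aplnr and Ifit1. Ifit1 had 65.8% of its mgR UMIs in 1 cell. Lrg1 was at 383 CPM in the WT library, 377 in mgR and 21.5 in mgR-LOS, 0.0570-fold (95% interval 0.0115 to 0.172) of mgR, with 37.2% of its mgR and 59.1% of its WT UMIs in 1 cell. Plvap was at 374 CPM in the WT library, 569 in mgR and 78.7 in mgR-LOS (0.138-fold, 95% interval 0.0673 to 0.255), with 46.2% of its mgR UMIs in 1 cell. Aplnr was at 200 CPM in the WT library, 184 in mgR and 35.8 in mgR-LOS (0.194-fold, 95% interval 0.0600 to 0.491) and was seen in 16 of 29 mgR cells against 3 of 20 mgR-LOS cells. Dnajb9 and Ostc, of the endoplasmic reticulum, were at 0.117-fold (95% interval 0.0135 to 0.462) and 0.187-fold (95% interval 0.0482 to 0.522) of mgR, in 15 and 14 mgR cells. Fam167b was at 0.181-fold (95% interval 0.0352 to 0.590) of mgR. B2m, H2-K1 and H2-D1 of class I were lower in mgR-LOS as well, B2m at 0.506-fold (95% interval 0.434 to 0.588) of mgR. In luminal cells Lrg1 was at 220 CPM in mgR and 38.7 in mgR-LOS, Cxcl9 at 22.5 and 0, and Ifit1 at 47.9 and 12.9. Plvap was at 267 and 273 CPM in luminal cells, and Aplnr at 0 and 2.58 CPM.

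In mgR-LOS against WT the highest genes included the pericyte markers Notch3, Pdgfrb, Rgs5 and Abcc9, with Isg15 and Zbtb16. Mt1, a metallothionein, was at 11.1-fold (95% interval 4.89 to 31.1) of WT in 11 of 20 cells, Gsn, an actin-severing protein that is also on the fibroblast list, at 9.32-fold (95% interval 2.93 to 47.4), and Hey1, a Notch target, at 7.95-fold (95% interval 2.46 to 40.8). Slc6a6, the taurine transporter, was at 7.57-fold (95% interval 3.02 to 24.4). Hey1 was at 26.1 CPM in the WT library, 65.7 in mgR and 207 in mgR-LOS, and at 26.1, 13.6 and 102 CPM without the pericyte-rich cells, from 3, 2 and 5 UMIs. The lowest were Prnd, Lrg1, Icam1 (0.161-fold, 95% interval 0.0692 to 0.333), H2-Q7, Selp, Plvap, Nme1, Ehd4, Il6st (0.269-fold, 95% interval 0.146 to 0.473) and AY036118, a transcript that overlaps ribosomal RNA repeats. Prnd had 95% and Selp 52.3% of its WT UMIs in 1 cell. Of the 16 microvascular genes Btnl9 was at 4.93-fold (95% interval 2.42 to 11.4), Timp4 at 3.02-fold (95% interval 1.68 to 5.75) and Cxcl12 at 2.03-fold (95% interval 1.64 to 2.52) of WT, so that 4 of 14 counted genes were at least 2-fold higher (with Rbp7) and 2 at least 2-fold lower (Plvap and Sgk1).

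Besides pericyte markers, the 65 cells held RNA of smooth muscle and fibroblast markers, and less of other cell types. Smooth muscle markers summed to 1513 CPM in the WT library, 1581 in mgR and 2153 in mgR-LOS, led by Tagln or Acta2, and fibroblast markers to 400.0 CPM in the WT library, 469 in mgR and 837 in mgR-LOS, 2 lists that the rule itself bounds. The fibroblast collagens Col1a2 and Col3a1 were called higher than in lymphatic cells, but not without the pericyte-rich cells (adjusted p = 0.39 and 0.88), nor without mgR (0.12 and 0.24) or mgR-LOS (0.26 and 0.32). Macrophage markers summed to 17.4 CPM in the WT library, 39.4 in mgR and 57.2 in mgR-LOS, with Csf1r at 0 in every library, and red cell markers to 60.9 CPM in the WT library, 30.7 in mgR and 14.3 in mgR-LOS. Adipocyte markers summed to 8.70 CPM in the WT library, 26.3 in mgR and 14.3 in mgR-LOS, cardiomyocyte markers to 52.2 CPM in the WT library, 17.5 in mgR and 64.4 in mgR-LOS, and mesothelial markers, all of them Wt1, to 17.4 CPM in the WT library, 8.76 in mgR and 42.9 in mgR-LOS. Endocardial genes summed to 26.1 CPM in the WT library, 39.4 in mgR and 21.5 in mgR-LOS, with Hapln1 at 0. Schwann cell markers had no UMI. Lymphocyte markers had no UMI in WT, 2 in mgR and 28 in mgR-LOS, and 15 of the latter (Cd79a, Cd79b and Ms4a1, of B cells) were in 1 cell. The part of this RNA in the differences between libraries was not tested.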

How the data were processed

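The authors pooled aortic tissue by genotype and treatment, digested it and built 10x Genomics 3′ v3.1 libraries. The authors deposited filtered matrices of whole UMI counts per gene and barcode on mm10. The submitters' processing notes name Cell Ranger 6.0.1 for all libraries, while the file headers give 5.0.1 for WT and mgR and 6.0.1 for mgR-LOS. Cells were chosen as described, and counts were summed per class and library. Classes were compared with edgeR 4.0.16 (quasi-likelihood test, TMM, filterByExpr, library as a block, Benjamini-Hochberg adjustment at 0.05). Standard errors (SE) are the absolute log2 fold change divided by the square root of that test's F statistic. They are not a spread measured directly between the libraries. Libraries were compared as CPM ratios with exact conditional intervals and no test. Members and gene lists were chosen with earlier results of these data known. Named are genes of the lists, the 10 highest and 10 lowest called genes of each class comparison (same direction in 3 libraries, at least 50 CPM), and the 10 highest and lowest ratios between libraries (at least 100 CPM and 30 UMIs), without the rule genes. Simulated doublets were scored in each library, and called cells were kept and removed as an alternative. Shares were thinned to 1000 UMIs. The class test was tested on simulated data for the luminal comparison over 5492 genes, where 100% of 4-fold and 30% of 2-fold increases and 69.8% of 4-fold and 20.9% of 2-fold decreases were called. These rates are over planted genes that passed the low-count filter, 50 for each increase and 43 for each decrease. The simulation gave every gene the same dispersion and no library effect beyond depth, so rates in the real data may differ. Positions are from GRCm38. Alternatives were DESeq2 1.42.0, other size factors, no filter on low counts, no block, other mitochondrial limits, a stricter rule and leaving out each library. A few listed or named genes are counted but not reported here by name.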

Additional observations from a re-analysis of the deposited data

Results flagged for a closer look

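In 10 gene and class pairs the level in capillary-type cells lay above that of another endothelial class in one library and below it in another, and none of these differences was tested. Plvap CPM in capillary-type over luminal cells was 2.86 in WT, 2.14 in mgR and 0.288 in mgR-LOS, and over lymphatic cells it was 2.26, 1.28 and 0.169. Icam1 over luminal cells was 5.07, 0.667 and 0.333 in the same order. Selp over luminal cells was 2.76, 0.435 and 0.455, from few cells. Klf2, a factor induced by shear, was 0.526, 0.816 and 1.18 over luminal and 0.598, 0.707 and 1.23 over lymphatic cells. Rbp7 over lymphatic cells was 0.681 in WT and 5.59 in mgR-LOS. Ednrb was 0.533 in mgR and 2.34 in mgR-LOS over lymphatic cells, Ifit1 3.07 and 0.254, and Ifitm3 1.10 and 0.730. Of the mgR UMIs of Ifit1 in capillary-type cells, 65.8% were in 1 cell.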

How the results depend on the processing

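No paired analysis between libraries was possible because each group is 1 library and the groups share fewer than 2 replicate numbers. The class test compared classes within each library through the library block. Leaving out each library in turn gave 354 to 540 genes higher and 372 to 501 lower than in luminal cells, and 329 to 609 higher and 293 to 497 lower than in lymphatic cells, with the lowest counts all without mgR. Without mgR-LOS 374 genes were lower than in luminal cells. DESeq2 called 348 genes lower than in luminal and 326 lower than in lymphatic cells, and a mitochondrial limit of 5% gave 373 lower than in luminal cells. With no filter on low counts 636 genes were higher and 824 lower than in luminal cells. Of 118 listed or named genes called against luminal cells, 98 were kept by DESeq2 and 96 of 115 tested without mgR. Of 114 against lymphatic cells, 91 were kept by DESeq2 and 84 of 110 tested without mgR.

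Settings chosen after the data were seen were a mitochondrial limit of 20%, which put the WT share at 27.6%, leaving out the 16 pericyte-rich cells, and leaving out the richest cell of each gene. Between libraries, at least 60 UMIs gave 23 genes higher and 12 lower in mgR than in WT, 19 and 25 in mgR-LOS against mgR, and 30 and 9 in mgR-LOS against WT. Without the richest cell the counts were 42 and 9, 34 and 38, and 49 and 18. Without the pericyte-rich cells the higher genes numbered 48, 56 and 37. Means over cells gave 71 lower in mgR than in WT, and 142 higher and 126 lower in mgR-LOS against mgR. The 5% limit gave 60 higher in mgR-LOS than in WT.

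Some single values turned direction, and the cause was not tested. Cytl1 against lymphatic cells went from a log2 fold change of 4.55 to -3.91 where the capillary sum had to be at least 2 times each other sum, and it ran from -4.00 without mgR, which held all its UMIs in 1 cell, to 5.65 without mgR-LOS. Without the pericyte-rich cells Pdgfrb against lymphatic cells was at -0.57, the ratio of mgR to WT was 0.780 for Abcc9 and 0.167 for Rgs5, and that of mgR-LOS to WT 0.337 for Rgs5 and 0.852 for Klf6. C430049B03Rik was at 4.90 in mgR over WT with the 5% limit. Selp was at 2.29 in mgR-LOS over mgR under the stricter rule and at 1.81 as a mean over cells.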
